A study of Mus musculus with 6 samples.

Results

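Transcripts of the interleukins, the signalling proteins that leukocytes use to address each other, and of their receptors were followed in splenocytes of lupus-prone mice under 2 estrogens. The members were all genes of a NanoString mouse immunology panel whose mouse symbol starts with Il and a digit, apart from 9 (Il7r, Il1r2, Il1rl1, Il17rb, Il4ra, Il4, Il13, Il2ra and Il10) that were set aside. This gave 46 of the 561 gene rows, of which 24 were ligands, the IL-1 receptor antagonist Il1rn among them, and 22 were receptors or receptor-like binding proteins. All mice were female NZB/WF1, F1 hybrids prone to spontaneous lupus, and were given their implant at 6 to 7 weeks of age for 9 weeks. The E2 group carried 17-beta estradiol, the natural estrogen, the EE group carried 17alpha-ethinyl estradiol, a synthetic estrogen with an added ethynyl group, and the placebo group carried an empty implant. Each group held 2 samples of bulk splenocytes, E2 replicates 1 and 2, EE replicates 11 and 14 and placebo replicates 22 and 26. The implant doses are not known here. No label ties a sample to one mouse, so the spread between the 2 samples of a group may be technical. The p-values rest only on this spread, pooled over the 3 groups and drawn towards the trend over all tested genes. For fits on the values as deposited, the trend almost wholly replaced a gene's own spread.

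Interleukins act through receptors built from shared chains. The common gamma chain, Il2rg, joins the receptors for IL-2, IL-7, IL-15 and IL-21 and passes its signal through the kinase Jak3, while gp130, encoded by Il6st, serves IL-6 and IL-27. Members of the IL-1 family, which include IL-18, IL-33 and the IL-36 cytokines, use receptors that signal through Myd88 and the Irak kinases. In the spleen most interleukin transcripts are made by activated cells, whereas many receptor chains are carried by resting T cells, B cells and natural killer (NK) cells. In bulk samples, fewer cells of a type and less RNA per cell cannot be told apart.

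The values were barcode counts per probe that had been scaled and rounded before deposit. Gene totals ranged from 646299 to 863942 per sample, and the geometric mean of 12 named reference genes was nearly level, from 1117.0 to 1184.8. Whole numbers that a factor followed by rounding cannot reach were nearly empty in placebo replicate 26. At the best factor of 1.237, 12 of the first 60 whole numbers could not be reached and held 3 values, where a smooth curve put 36.9. In EE replicates 11 and 14, with best factors of 0.87 and 0.885, whole numbers that 2 counts share held 60 and 53 values, against 30.4 and 26.3 by the curve. Background, the mean plus 2 SD of 8 negative controls, lay between 10.2 and 13.7. Fold changes are therefore given on 2 scales, as deposited and with each sample centred on the median of the 457 tested genes, which sets the typical panel gene to no change. As deposited, the log2 fold change of every gene differed from the centred one by -0.564 in E2 against placebo, by -0.685 in EE against placebo and by -0.121 in EE against E2. "Rose" and "fell" refer to the centred scale and an adjusted p under 0.05. On that scale 11 of the 12 reference genes rose in each comparison with placebo, with medians of 0.585 in E2 and 0.644 in EE. As deposited, 2 of them were higher and 2 lower in E2, and 4 were higher and 2 lower in EE. A rise on the centred scale is thus relative to the typical panel gene and not to the reference genes.

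Receptor transcripts were measured more often than ligand transcripts. Of the 22 receptors, 19 lay above background in all 6 samples, and of the 24 ligands 9 did. Another 6 ligands, but 0 of the receptors, stayed at or under background in every sample. Testing was limited to genes averaging 20 or more over the 6 samples, which kept 27 members (8 ligands and 19 receptors) and left out 19 (16 ligands and 3 receptors). The ligands left out were Il2, Il3, Il5, Il6, Il7, Il9, Il17a, Il17b, Il17f, Il19, Il20, Il22, Il23a, Il25, Il27 and Il33, with values between 1 and 23. They include Il6, the inflammatory cytokine that drives plasma cell formation, at 9 and 23 in E2, 9 and 18 in EE and 15 and 9 in placebo, and Il17a, the main T helper 17 cytokine, at 21 and 13 in E2, 14 and 12 in EE and 15 and 21 in placebo. For both, the samples of the 3 groups overlapped, and Il6 lay above its sample's background limit in 3 samples and Il17a in 5. The receptors left out were Il17re, a subunit of the IL-17C receptor, Il22ra2, the soluble protein that binds IL-22, and Il23r, which pairs with Il12rb1 to bind IL-23. Il23r, the member just under the limit with a mean of 19.0, had 20 and 11 in E2, 14 and 8 in EE and 28 and 33 in placebo, so that both placebo samples were above the samples of both estrogens.

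**Figure D1:**
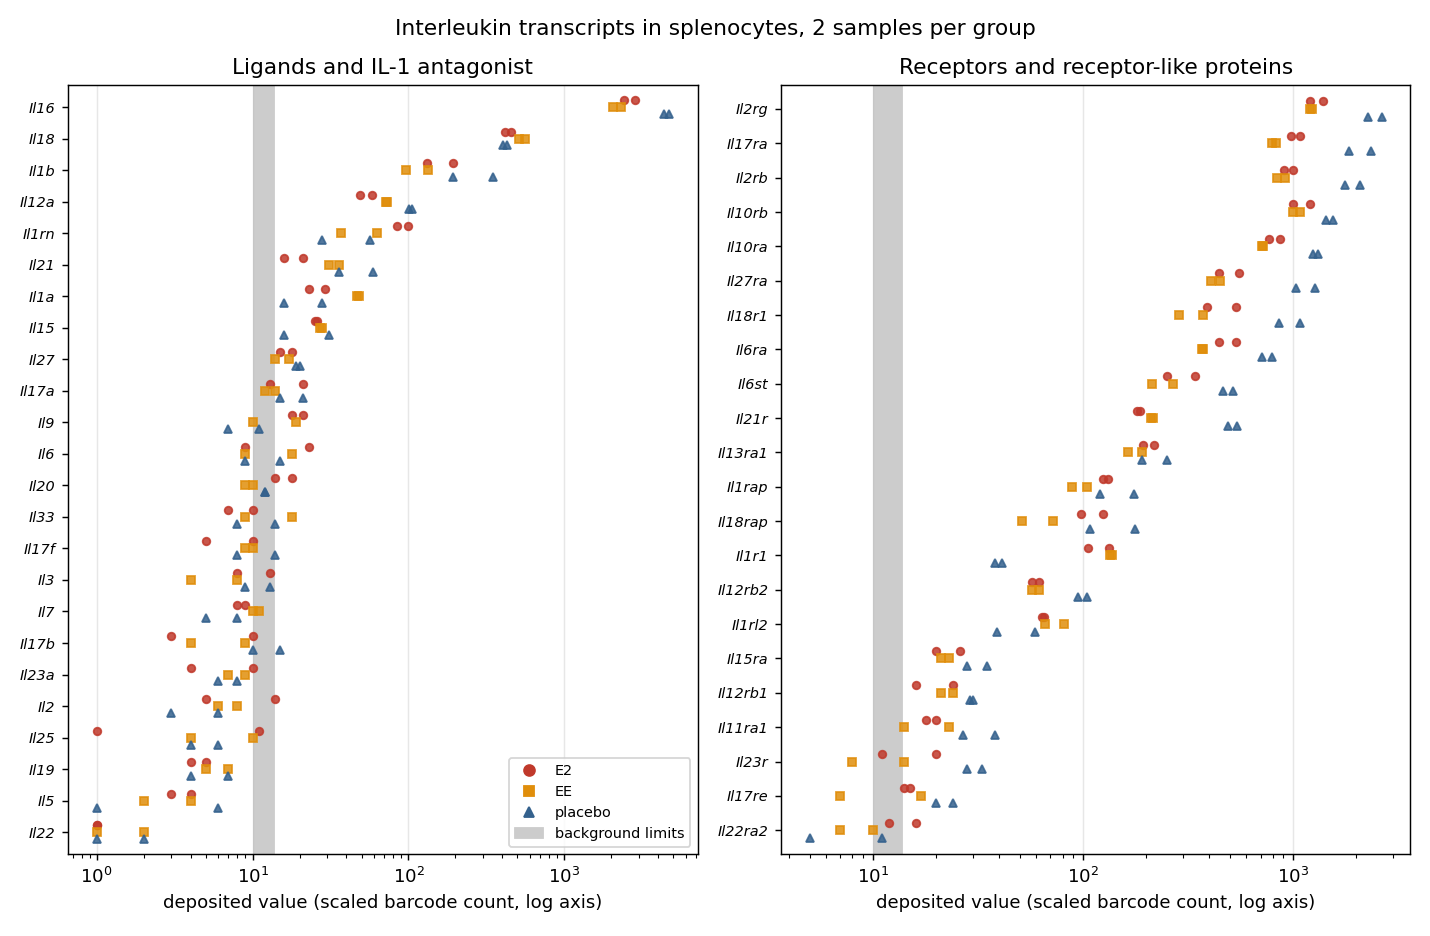
Deposited values of the 24 ligands (left) and 22 receptors (right), 1 point per sample on a log axis, with circles for E2, squares for EE and triangles for placebo and a grey band for the background limits of the 6 samples, 10.2 to 13.7. Most ligands lie in or left of the band and most receptors to its right. Most well-measured receptors have both placebo triangles rightmost. Il1r1 and Il1rl2 have them leftmost, and in Il13ra1, Il1rap and Il18rap they overlap the estrogen samples.

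In E2 against placebo, 6 of the 27 tested members rose and 7 fell. Over all 457 tested genes 52.1% were called, 29.3% higher and 22.8% lower, and the members' shares were near these. The median centred log2 fold change was 0.25 for the 8 ligands and -0.09 for the 19 receptors, against 0.005 for all tested genes. In EE against placebo, 6 members rose and 8 fell, where 58.9% of all tested genes were called, 31.1% higher and 27.8% lower. The ligands then had a median of 0.59 and the receptors of -0.16, against -0.01 for all tested genes. As deposited, 2 members were higher and 15 lower in E2 against placebo, where 73.3% of all tested genes were called, 13.8% higher and 59.5% lower, and 4 were higher and 16 lower in EE against placebo, where 79.2% were called, 15.8% higher and 63.5% lower. Separation without overlap was seen in E2 against placebo for 9 members that were higher and 11 that were lower on the centred scale (77.9% of all tested genes did not overlap), and for 3 and 17 as deposited (85.8%). In EE against placebo this held for 10 and 10 members (81% of all tested genes), and for 4 and 19 as deposited (88.8%). The number of members called in opposite directions on the 2 scales was 0 in each comparison by limma, the only tool run. Both comparisons use the same placebo samples, so their values are set side by side and not counted as independent.

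**Figure D2:**
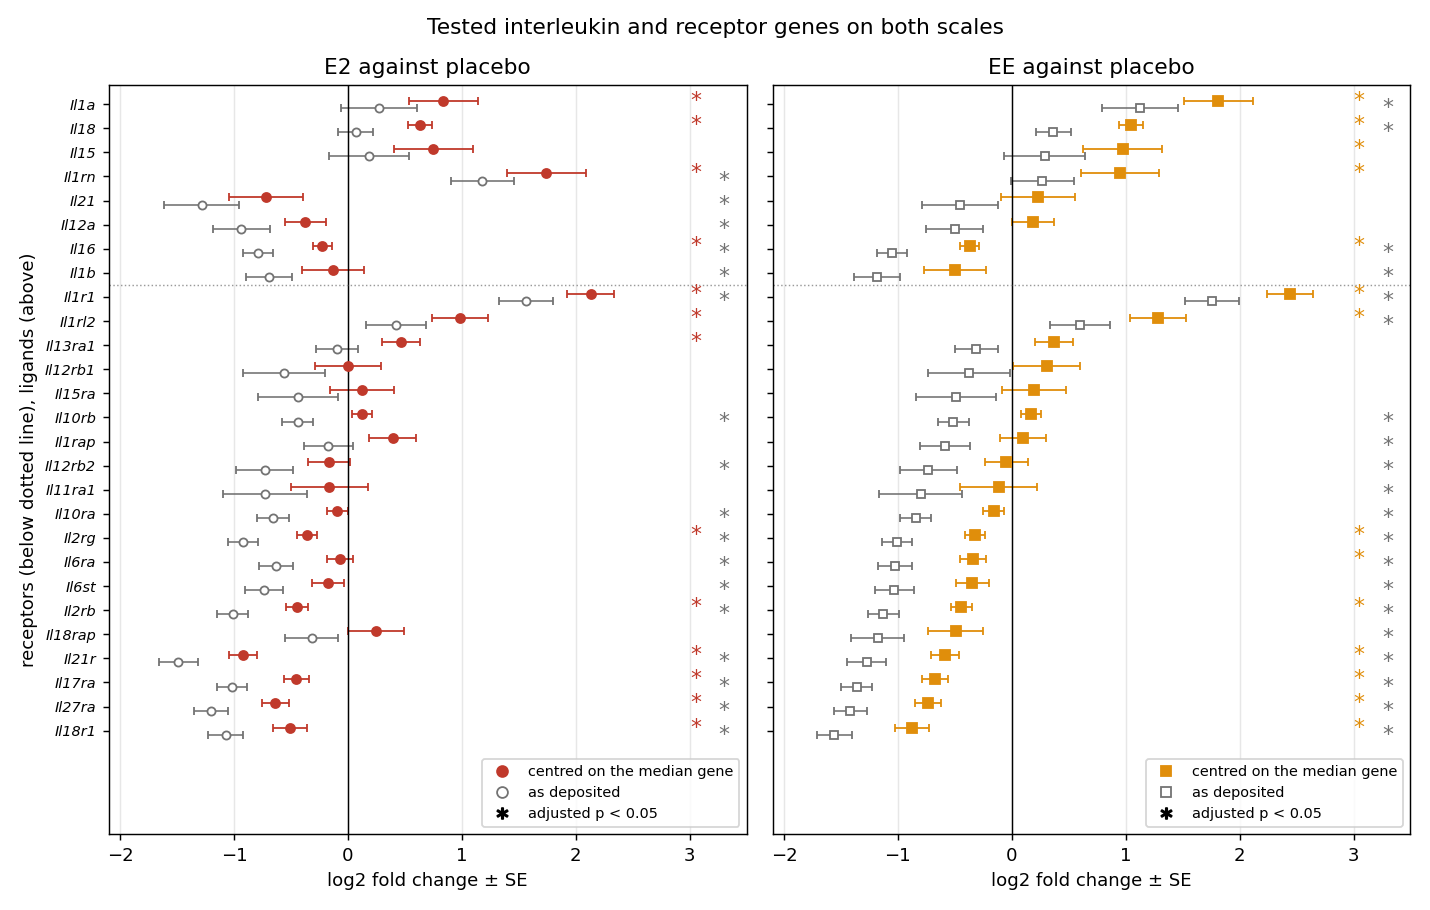
Log2 fold changes with SE of the 27 tested members in E2 against placebo (left) and EE against placebo (right), with filled symbols for the centred scale and open grey symbols for the values as deposited. Asterisks at the right mark an adjusted p under 0.05 on the scale of the same colour. Every open symbol lies left of its filled one, and Il1r1 lies farthest right on both scales in both panels.

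Of the 9 tested ligands and receptors of the IL-1 family, 5 rose in each comparison with placebo (Il1r1, Il1rl2, Il1a, Il1rn and Il18) and 1 fell (Il18r1), where 29.3% of all tested genes rose in E2 and 31.1% in EE. As deposited, 2 were higher and 2 lower in E2, and 4 were higher and 4 lower in EE. Of all tested genes 13.8% were higher and 59.5% lower as deposited in E2, and 15.8% and 63.5% in EE. Il1r1, the signalling receptor for IL-1 alpha and IL-1 beta, had 106 and 133 in E2, 137 and 135 in EE, and 38 and 41 in placebo. Every estrogen sample lay far above both placebo samples. The centred log2 fold change was 2.13 ± 0.20 (SE) in E2 (adjusted p = 1.92e-05) and 2.44 ± 0.20 in EE (4.40e-06), and as deposited it was 1.56 ± 0.24 and 1.76 ± 0.24. Il1r1 was the 1 member called higher in both comparisons under each of the 6 scalings run (median gene, trimmed mean gene, as deposited, reference genes, gene totals and positive controls), with log2 fold changes from 1.47 to 2.13 in E2 and from 1.43 to 2.44 in EE.

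Il1rl2, the receptor for the IL-36 cytokines, had 65 and 64 in E2, 81 and 66 in EE, and 39 and 59 in placebo. Both estrogen groups lay above placebo, but by little as deposited. On the centred scale it rose by 0.98 ± 0.24 in E2 (adjusted p = 0.00697) and 1.28 ± 0.24 in EE (0.00126). As deposited the log2 difference was 0.42 ± 0.27 in E2 (adjusted p = 0.147) and 0.60 ± 0.27 in EE (0.0327).

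Il1a, which encodes IL-1 alpha, had 29 and 23 in E2, 48 and 47 in EE, and 16 and 28 in placebo. The EE samples stood above the other 4, while the E2 and placebo samples overlapped as deposited. In EE it rose by 1.81 ± 0.30 (adjusted p = 5.40e-04) and as deposited by 1.13 ± 0.33 (0.00139), and the call held under each of the 6 scalings. In E2 the centred value was 0.84 ± 0.30 (adjusted p = 0.0395) and the value as deposited 0.27 ± 0.33 (0.464). The E2 call was lost without any 1 of 5 samples, E2 replicate 1 (adjusted p = 0.148), E2 replicate 2 (0.0986), EE replicate 11 (0.0639), EE replicate 14 (0.0697) or placebo replicate 22 (0.229, with a log2 fold change of 0.48).

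Il1rn, the antagonist that occupies the IL-1 receptor without signalling, had 99 and 85 in E2, 37 and 63 in EE, and 57 and 28 in placebo. The E2 samples were the highest, and EE and placebo overlapped as deposited. In E2 it rose by 1.74 ± 0.34 (adjusted p = 0.00185) and as deposited by 1.18 ± 0.28 (6.85e-05), a call kept under each of the 6 scalings. In EE the centred value was 0.95 ± 0.34 (adjusted p = 0.0361) and that as deposited 0.27 ± 0.28 (0.373), and it turned to -0.06 when scaled on positive controls. The EE call was lost without E2 replicate 1 (adjusted p = 0.0613), E2 replicate 2 (0.0508), EE replicate 14 (0.272, with a log2 fold change of 0.61) or placebo replicate 26 (0.227, with 0.40), and without placebo replicate 22 the value was 1.47.

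Il18, the interferon-gamma-inducing member of the family, had 455 and 418 in E2, 510 and 563 in EE, and 428 and 405 in placebo. The E2 and placebo samples overlapped as deposited, and both EE samples lay above them. It rose by 0.63 ± 0.11 in E2 (adjusted p = 8.29e-04) and 1.05 ± 0.11 in EE (1.78e-05), against 0.07 ± 0.15 (0.711) and 0.36 ± 0.15 (0.0252) as deposited. The E2 call held only when centred on the median or trimmed mean gene, and scaled on positive controls its value turned to -0.03. Scaling to the reference genes ended the EE call (0.30, adjusted p = 0.079), as did scaling to positive controls (0.03, 0.873). Il1b, which encodes IL-1 beta, had 194 and 132 in E2, 97 and 134 in EE, and 350 and 193 in placebo, where the placebo samples lay far apart and the lower one overlapped E2. Its centred values of -0.13 ± 0.27 in E2 (adjusted p = 0.698) and -0.50 ± 0.27 in EE (0.145) did not pass, while as deposited it was lower in both (-0.70 ± 0.20 and -1.18 ± 0.20, adjusted p = 0.00119 and 4.19e-08). The SE as deposited reflect the trend over all tested genes more than the wide spread of Il1b itself. Il1a and Il1b lie next to each other on mouse chromosome 2, with no protein-coding gene between them in the RefSeq table of assembly GRCm38.p6.

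Among the remaining IL-1 family receptors, Il18r1, the binding chain of the IL-18 receptor, had 535 and 389 in E2, 285 and 372 in EE, and 853 and 1083 in placebo. Both placebo samples lay above all estrogen samples. It fell by 0.51 ± 0.15 in E2 (adjusted p = 0.0172) and 0.87 ± 0.15 in EE (6.78e-04), and was called lower under each of the 6 scalings in both comparisons. The E2 call was lost without E2 replicate 2 (-0.36, adjusted p = 0.137). Il18rap, the second IL-18 receptor chain, had 125 and 98 in E2, 51 and 72 in EE, and 108 and 177 in placebo, with the lowest values in EE. Its centred values were 0.25 ± 0.24 in E2 (adjusted p = 0.423) and -0.49 ± 0.24 in EE (0.106), against -0.32 ± 0.23 (0.209) and -1.18 ± 0.23 (1.70e-06, lower) as deposited. Il1rap, the accessory chain that IL-1, IL-33 and IL-36 receptors share, had 132 and 125 in E2, 89 and 104 in EE, and 175 and 120 in placebo, with centred values of 0.39 ± 0.21 (adjusted p = 0.133) and 0.10 ± 0.21 (0.682), while as deposited it was -0.17 ± 0.22 in E2 (0.472) and passed as lower in EE (-0.59 ± 0.22, adjusted p = 0.00994). The IL-18 ligand and its binding chain thus moved in opposite directions on the centred scale in both comparisons.

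Il1r1, Il1rl2, Il18r1 and Il18rap lie in 1 cluster on mouse chromosome 1, in the order Il1r2, Il1r1, Il1rl2, Il1rl1, Il18r1 and Il18rap, with no other protein-coding gene among them in the RefSeq table. Within it Il1r1 and Il1rl2 rose while Il18r1 fell. Promoter windows of 300 bases that span an annotated start were available for 33 of the 46 members and for 20 of the 27 tested ones in RefSeq (GRCm38.p6), and the first listed start was taken for genes with several. Those of the 3 neighbours that changed are shown because they stand side by side and differ in direction, and that of Il21r because it fell and holds the motif searched. The motif was GGTCA, the core that recurs in the estrogen response element, on both strands, and its matches are in capitals, TGACC being the same core read on the other strand. They were at chr1:40224830-40225129, chr1:40324339-40324638, chr1:40465302-40465601 and chr7:125603179-125603478, all on the plus strand, and are printed 5′ to 3′.
Il1r1: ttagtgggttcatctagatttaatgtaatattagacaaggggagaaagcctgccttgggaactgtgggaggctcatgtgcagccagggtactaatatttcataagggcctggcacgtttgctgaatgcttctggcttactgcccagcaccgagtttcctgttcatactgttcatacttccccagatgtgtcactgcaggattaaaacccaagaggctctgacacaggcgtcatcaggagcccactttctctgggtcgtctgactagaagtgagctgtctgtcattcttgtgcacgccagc
Il1rl2: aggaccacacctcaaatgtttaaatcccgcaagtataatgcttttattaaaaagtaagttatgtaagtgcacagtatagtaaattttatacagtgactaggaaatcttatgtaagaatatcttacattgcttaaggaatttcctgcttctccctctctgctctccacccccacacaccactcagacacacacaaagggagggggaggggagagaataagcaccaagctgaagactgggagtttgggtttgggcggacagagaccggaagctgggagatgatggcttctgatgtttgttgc
Il18r1: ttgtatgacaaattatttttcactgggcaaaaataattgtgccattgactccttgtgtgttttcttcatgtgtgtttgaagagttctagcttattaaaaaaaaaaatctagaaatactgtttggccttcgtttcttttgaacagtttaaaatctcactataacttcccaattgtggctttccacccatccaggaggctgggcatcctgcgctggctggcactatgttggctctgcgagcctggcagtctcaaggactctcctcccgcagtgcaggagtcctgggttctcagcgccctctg
Il21r: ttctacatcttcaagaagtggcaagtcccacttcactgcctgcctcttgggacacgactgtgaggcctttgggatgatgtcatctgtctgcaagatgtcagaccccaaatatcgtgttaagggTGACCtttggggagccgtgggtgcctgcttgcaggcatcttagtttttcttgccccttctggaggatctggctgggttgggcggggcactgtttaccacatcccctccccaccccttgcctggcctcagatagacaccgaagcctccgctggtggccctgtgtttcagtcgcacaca

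Of the 20 tested members with a window, 5 held GGTCA on either strand, Il12rb2, Il15ra, Il1rn, Il21r and Il6st, against 40.2% of the 27025 RefSeq promoters of the same length. The full element, GGTCA and TGACC with any 3 bases between them, contains the core and was found in 0 of the 20 and in 0.0666% of all promoters. An NF-kB-like motif, GGGA and CC with any 4 bases between them on either strand, was found in 7 of the 20 and in 20.5% of all promoters. A match is no binding site, and a missing match says only that the letters are not in this window. Il1r1 has 2 and Il18r1 has 3 starts in the table, and which of them splenocytes use was not measured here.

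The other ligands are described next. Il16, a chemoattractant for CD4+ cells that resting lymphocytes make, had 2847 and 2395 in E2, 2042 and 2323 in EE, and 4351 and 4688 in placebo. Both placebo samples lay above all estrogen samples. It fell by 0.23 ± 0.08 in E2 (adjusted p = 0.0428) and 0.37 ± 0.08 in EE (0.00363), and as deposited by 0.79 ± 0.13 and 1.05 ± 0.13, and was called lower under each of the 6 scalings in both. The E2 call was lost without E2 replicate 1 (adjusted p = 0.089), E2 replicate 2 (0.238), EE replicate 11 (0.073) or EE replicate 14 (0.063), and the EE call without EE replicate 11 (0.0577). Il15, which sustains NK and memory T cells, had 26 and 25 in E2, 28 and 27 in EE, and 31 and 16 in placebo, so that the placebo samples bracketed the others as deposited. It rose by 0.97 ± 0.35 in EE on the centred scale (adjusted p = 0.0341), against 0.75 ± 0.35 in E2 (0.0921). The EE call was lost without any sample but placebo replicate 22 (adjusted p from 0.0527 to 0.276, the highest without placebo replicate 26 with a log2 fold change of 0.46), and the value was -0.04 when scaled on positive controls.

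Il21, a follicular helper T cell cytokine that acts on B cells, had 16 and 21 in E2, 31 and 36 in EE, and 59 and 36 in placebo. The E2 samples were the lowest. Its centred values were -0.72 ± 0.33 in E2 (adjusted p = 0.0858) and 0.23 ± 0.33 in EE (0.556), and only E2 against placebo passed as deposited (-1.28 ± 0.33, adjusted p = 2.81e-04). Il12a, the p35 chain of IL-12, had 58 and 49 in E2, 73 and 72 in EE, and 101 and 105 in placebo, an order of E2, EE and placebo from low to high with no overlap. The centred values were -0.37 ± 0.18 in E2 (adjusted p = 0.109) and 0.18 ± 0.18 in EE (0.408), and as deposited E2 against placebo passed (-0.94 ± 0.25, adjusted p = 4.18e-04).

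Of the 4 tested receptors of the common gamma chain family 3 fell under both estrogens, Il21r, Il2rb and Il2rg. Of all tested genes 22.8% fell in E2 and 27.8% in EE. Il21r, which receives IL-21 on B cells and T cells, had 187 and 180 in E2, 215 and 211 in EE, and 491 and 543 in placebo. It fell by 0.92 ± 0.12 in E2 (adjusted p = 1.82e-04) and 0.59 ± 0.12 in EE (0.00224), with -1.49 ± 0.17 and -1.27 ± 0.17 as deposited. Il2rb, the chain shared by the IL-2 and IL-15 receptors, had 997 and 903 in E2, 835 and 919 in EE, and 1757 and 2086 in placebo, and fell by 0.45 ± 0.10 (adjusted p = 0.00288) and 0.44 ± 0.10 (0.00264). Il2rg had 1383 and 1206 in E2, 1230 and 1209 in EE, and 2272 and 2645 in placebo, and fell by 0.36 ± 0.09 (adjusted p = 0.0077) and 0.32 ± 0.09 (0.012). For these 3 genes no estrogen sample reached a placebo sample. Over all tested genes the samples did not overlap, in either direction, for 85.8% in E2 and 88.8% in EE as deposited. Each of the 3 was called lower under each of the 6 scalings in both comparisons, as were 19.7% of all tested genes. The Il2rg calls were lost without E2 replicate 2 in E2 (-0.34, adjusted p = 0.0573) and without EE replicate 14 in EE (-0.28, 0.101). Il15ra, the high-affinity IL-15 chain, had 26 and 20 in E2, 23 and 21 in EE, and 28 and 35 in placebo, close to background, with centred values of 0.12 ± 0.28 (adjusted p = 0.725) and 0.19 ± 0.28 (0.57), and it was not called as deposited (0.253 and 0.188).

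In the IL-6 and IL-12 families, Il27ra, the binding chain for IL-27, had 555 and 445 in E2, 405 and 451 in EE, and 1028 and 1272 in placebo. It fell by 0.64 ± 0.12 in E2 (adjusted p = 0.00118) and 0.73 ± 0.12 in EE (4.00e-04), and was called lower under each of the 6 scalings in both. Its partner gp130, Il6st, had 341 and 252 in E2, 213 and 269 in EE, and 462 and 519 in placebo, with centred values of -0.17 ± 0.14 (adjusted p = 0.328) and -0.34 ± 0.14 (0.0594), and was lower in both as deposited (-0.74 ± 0.17 and -1.03 ± 0.17, adjusted p = 3.79e-05 and 9.59e-09). The IL-6 binding chain Il6ra had 532 and 443 in E2, 372 and 367 in EE, and 793 and 715 in placebo. It fell by 0.34 ± 0.11 in EE (adjusted p = 0.0242), and there was called lower under each of the 6 scalings, with -0.07 ± 0.11 in E2 (0.628), where it was lower as deposited (-0.63 ± 0.15, adjusted p = 9.08e-05), and its EE call was lost without EE replicate 11 (0.0741), EE replicate 14 (0.153) or placebo replicate 22 (0.0786). The IL-12 receptor chains Il12rb1 and Il12rb2 and the IL-11 receptor Il11ra1 did not pass on the centred scale, with log2 fold changes between -0.17 and 0.31. Il11ra1 was lower in EE as deposited (-0.80 ± 0.37, adjusted p = 0.0384). Il12rb2, which T helper 1 cells carry, had 62 and 57 in E2, 57 and 62 in EE, and 95 and 104 in placebo, and was lower as deposited in both (-0.73 ± 0.25 in each, adjusted p = 0.00645 and 0.00587).

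Il17ra, the common chain of IL-17 receptors, had 1079 and 978 in E2, 830 and 790 in EE, and 1836 and 2357 in placebo. It fell by 0.45 ± 0.11 in E2 (adjusted p = 0.00697) and 0.68 ± 0.11 in EE (5.29e-04), under each of the 6 scalings in both. The IL-10 receptor chains did not pass on the centred scale. Il10ra, the ligand-binding chain, had 866 and 765 in E2, 716 and 713 in EE, and 1250 and 1318 in placebo, with centred values of -0.09 ± 0.09 and -0.16 ± 0.09 (adjusted p = 0.41 and 0.147). Il10rb, the chain shared with the IL-22 receptor, had 1198 and 996 in E2, 1000 and 1083 in EE, and 1429 and 1542 in placebo, with 0.12 ± 0.09 and 0.17 ± 0.09 (adjusted p = 0.267 and 0.116). As deposited both were lower under both estrogens. Il13ra1, an IL-13 receptor chain, had 217 and 193 in E2, 163 and 191 in EE, and 251 and 191 in placebo, which overlap. Its centred value of 0.47 ± 0.17 in E2 passed (adjusted p = 0.0374) but turned to -0.10 as deposited, and the call was lost without any sample but placebo replicate 22 (adjusted p from 0.0655 to 0.303, the highest without placebo replicate 26 with a log2 fold change of 0.22).

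**Figure D3:**
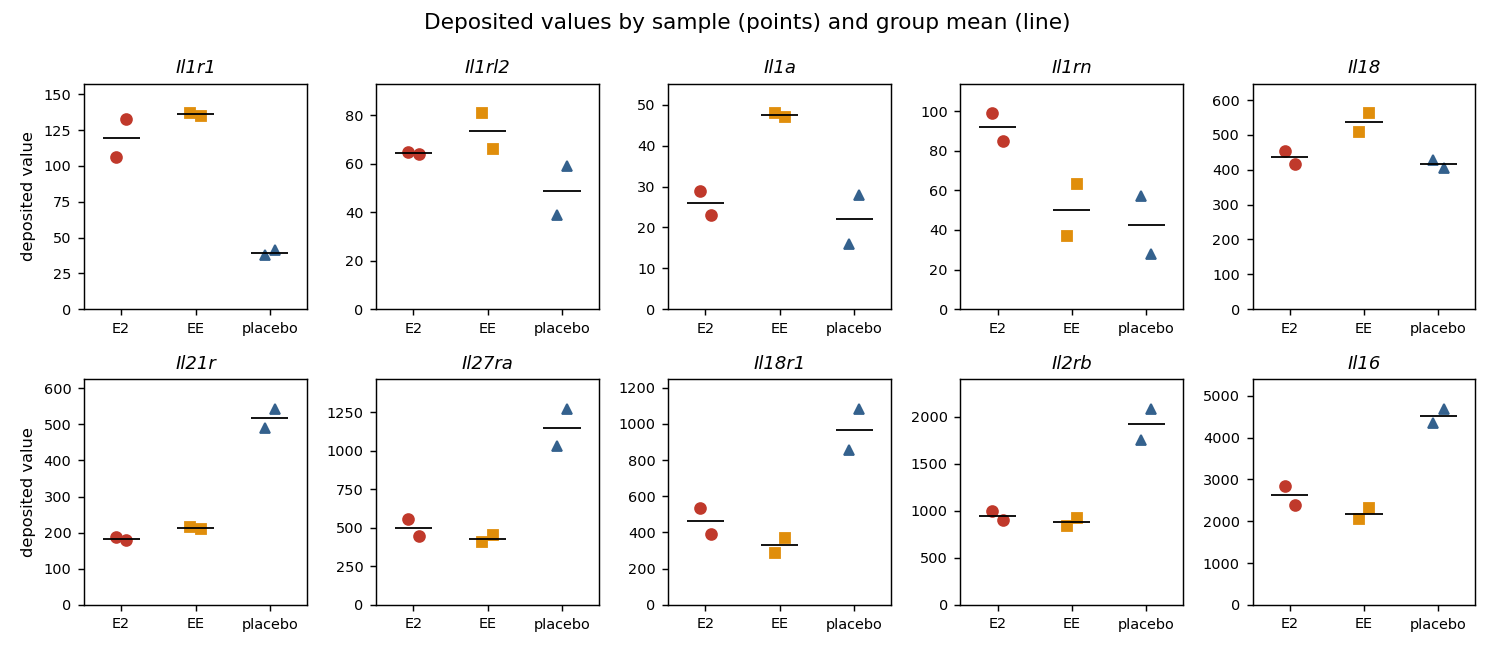
Deposited values of 10 members, with 1 point per sample and a line at the group mean, each panel on its own axis from 0. In the upper row Il1r1 and Il1rl2 are higher in all 4 estrogen samples, Il1a in EE and Il1rn in E2. In the lower row Il21r, Il27ra, Il18r1, Il2rb and Il16 have both placebo samples above all estrogen samples.

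In all, 7 members were called lower in both comparisons under each of the 6 scalings, the ligand Il16 and the 6 receptors Il21r, Il2rb, Il2rg, Il27ra, Il18r1 and Il17ra, where 19.7% of all 457 tested genes were called so. Il1r1 was the 1 member called higher in this way, as were 6.78% of all tested genes. Markers of lymphocytes moved the same way. Of 8 tested T cell markers 7 fell in E2 and 8 in EE, of 7 B cell markers 4 fell in E2 and 6 in EE, and of 6 NK and cytotoxic cell markers 5 fell in each. Over all tested genes 22.8% fell in E2 and 27.8% in EE. As deposited all of these markers were lower in both comparisons, where 59.5% of all tested genes were lower in E2 and 63.5% in EE. The summed deposited values of the T cell markers were 7491 to 8957 in E2, 5744 to 6468 in EE and 15986 to 18301 in placebo. Those of the B cell markers were 22894 to 27355 in E2, 20383 to 21023 in EE and 38872 to 42370 in placebo, and those of the NK and cytotoxic list were 946 to 1428 in E2, 977 to 1145 in EE and 3610 to 3699 in placebo. Beside the IL-1 family increases, all 5 neutrophil markers and all 5 monocyte and macrophage markers rose in both comparisons, though as deposited 2 of the monocyte and macrophage markers were higher in E2. Over all tested genes 29.3% rose in E2 and 31.1% in EE. Neutrophil sums were 182175 to 207441 in E2, 81231 to 92922 in EE and 5693 to 9278 in placebo, and monocyte and macrophage sums were 6854 to 6988 in E2, 9639 to 10960 in EE and 5157 to 6251 in placebo. All 6 erythroid, megakaryocyte and platelet markers rose in both (5 in E2 as deposited), with sums of 15027 to 15112 in E2, 18975 to 19711 in EE and 2289 to 2995 in placebo. Every measured marker of these lists lay above background in all 6 samples, and their part in the interleukin and receptor values was not tested.

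The signalling genes downstream of these receptors, the JAK kinases, STATs, SOCS family and IL-1 receptor adaptors, were read from a separate list of which 21 were measured and tested. In E2 against placebo 1 rose and 5 fell (median -0.18), and in EE against placebo 2 rose and 8 fell (median -0.22). As shares of the list, 4.76% rose and 23.8% fell in E2 and 9.52% rose and 38.1% fell in EE, against 29.3% and 22.8% of all tested genes in E2 and 31.1% and 27.8% in EE. Stat4, which IL-12 activates, fell by 0.71 ± 0.10 in E2 (adjusted p = 2.62e-04) and 0.67 ± 0.10 in EE (2.63e-04). Jak3, the kinase bound to Il2rg, fell by 0.67 ± 0.12 (adjusted p = 9.38e-04) and 0.40 ± 0.12 (0.014), and Jak1 by 0.35 ± 0.08 (0.00509) and 0.35 ± 0.08 (0.00483). Irak4, the first kinase recruited to the IL-1 receptor adaptor, fell by 0.45 ± 0.11 in E2 (adjusted p = 0.00763), and Stat3 by 0.31 ± 0.09 in EE (0.0135). Cish, a feedback inhibitor that STAT5 induces, rose by 0.78 ± 0.25 (adjusted p = 0.0239) and 1.02 ± 0.25 (0.00564). Tollip, an inhibitor of IL-1 receptor signalling, rose by 0.37 ± 0.13 in EE (adjusted p = 0.0304) and had -0.31 as deposited. As deposited, 0 of the list were higher and 19 were lower in E2, and 0 were higher and 20 lower in EE. Over all tested genes 59.5% were lower as deposited in E2 and 63.5% in EE, with 13.8% and 15.8% higher.

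Set against E2, EE differs by its ethynyl group, and whether the doses were matched is not known here. Of the 27 tested members 1 rose and 0 fell by limma, where 13.1% of all tested genes were called, 7.66% higher and 5.47% lower, and at an unadjusted p under 0.05 there were 5 higher and 4 lower. The member that rose was Il18, with 510 and 563 in EE and 455 and 418 in E2, by 0.42 ± 0.11 (adjusted p = 0.0284, 95% confidence interval 0.18 to 0.65). As deposited its difference was 0.30 ± 0.15 (adjusted p = 0.184), and the call was lost without any 1 of the 4 estrogen samples (adjusted p from 0.125 to 0.202).

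Other ligands had wide intervals. Il1a had 48 and 47 in EE and 29 and 23 in E2, a log2 difference of 0.97 with an interval of 0.30 to 1.65 (adjusted p = 0.063). Il21 had 31 and 36 in EE and 16 and 21 in E2, a difference of 0.95 with an interval of 0.23 to 1.68 (0.0813). Il12a had 73 and 72 in EE and 58 and 49 in E2, a difference of 0.56 with an interval of 0.15 to 0.97 (0.0752). Il1rn had 37 and 63 in EE and 99 and 85 in E2, a difference of -0.79 with an interval of -1.56 to -0.02 (0.172). In each of these 4 the EE and E2 samples did not overlap, and none passed the threshold on the centred scale. Over all tested genes the samples of EE and E2 did not overlap for 62.8% on the centred scale and 58.6% as deposited.

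Several receptors were bounded more tightly on the centred scale. For Il2rb the difference was 0.01 with an interval of -0.21 to 0.22, for Il2rg 0.04 with -0.17 to 0.24, for Il10rb 0.05 with -0.14 to 0.25 and for Il10ra -0.07 with -0.26 to 0.13. These intervals do not cover the choice of scaling. At the lowest of the 6 scalings the differences lay outside them, at -0.351 for Il2rb, -0.318 for Il2rg, -0.305 for Il10rb and -0.423 for Il10ra. For Il1r1, with 137 and 135 in EE and 106 and 133 in E2, it was 0.31 with an interval of -0.14 to 0.77 (adjusted p = 0.375). The IL-18 receptor chains were lower in EE as deposited, Il18rap with 51 and 72 in EE and 125 and 98 in E2 and Il18r1 with 285 and 372 in EE and 535 and 389 in E2. Their centred differences were -0.74 (interval -1.28 to -0.20, adjusted p = 0.0749) and -0.36 (interval -0.70 to -0.03, adjusted p = 0.146). As deposited, 0 members were higher and 3 lower in EE against E2 (Il1rn, Il18rap and Il18r1), where 16.2% of all tested genes were called, 5.25% higher and 10.9% lower.

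**Figure D4:**
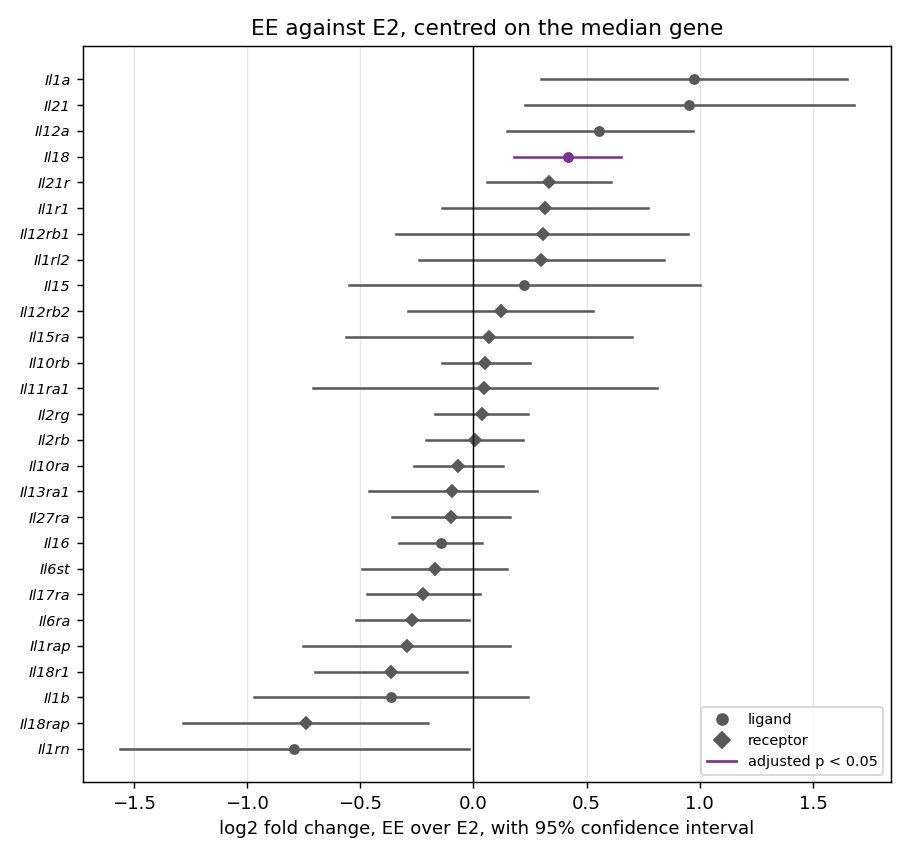
Centred log2 fold changes of EE over E2 for the 27 tested members, with 95% confidence intervals, circles for ligands and diamonds for receptors. Il18, in purple, is the member with an adjusted p under 0.05, and the intervals of Il2rb, Il2rg, Il10ra and Il10rb are narrow around 0.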

How the data were processed

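RNA of 6 bulk splenocyte samples was counted by the authors with a NanoString nCounter mouse immunology panel, per the labels. The deposited values were planned as counts, but gaps and pile-ups in their low whole numbers show scaling and rounding before deposit, so they were treated as a score, the deposited scaled barcode count, and edgeR and DESeq2 were not used. No source used here gives the scaling steps. The table held 575 rows, 561 genes and 14 spiked-in controls, which made up 2.82% to 4.71% of each sample and stayed out of tests. A spiked-in control with a mean of at least 20 counted as positive (6), the others as negative (8). RefSeq identifiers named 549 gene rows and left 12 unnamed (GRCm38.p6). All value columns belonged to a sample (0 did not).

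Genes with a mean of at least 20 (457) were tested with limma 3.58.1 in R 4.3.3, with trend, on log2(value + 1), each sample centred on the median gene, in 1 model of 3 group means. The p-values are two-sided and Benjamini-Hochberg adjusted over the 457 genes. Each gene's spread was pooled over the 3 groups and drawn towards the trend over all tested genes. On the centred scale this gave 10.05 total degrees of freedom. The fit as deposited estimated its spread separately and drew it almost wholly to the trend over all tested genes. Its p-values thus reflect little of a gene's own spread and are not directly comparable with those of the centred scale. Calls made only as deposited rest mainly on that trend. Folds are on the log2(value + 1) scale, which understates changes of low genes. The fit was tested on simulated data. Alternatives were other scalings, pseudocounts, filters, background subtraction, fits of only the groups compared, and leaving out each sample in turn. Only 2 samples per group limit the precision. The members, lists and tests were chosen with earlier results of these data known. Each member past the threshold in a comparison is named with all its values, and of the signalling genes up to 4 per direction.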

Additional observations from a re-analysis of the deposited data

Results flagged for a closer look

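Il18 was noted because its difference of 0.42 (log2) in EE against E2 passed on the centred scale (adjusted p = 0.0284), with 1.05 in EE against placebo and 0.63 in E2 against placebo. It did not pass as deposited (0.30, adjusted p = 0.184), on reference genes (0.29, 0.224), on positive controls (0.06, 0.815) or without any 1 of the 4 estrogen samples (adjusted p from 0.125 to 0.202). Of the 6 scalings Il18 passed on 3, the median gene, the trimmed mean gene (0.41, adjusted p = 0.0329) and gene totals (0.56, 0.00493). Il12a was noted because both EE samples lay above, and both E2 samples below, both placebo samples on the centred scale. Its difference of 0.56 in EE against E2 did not pass (adjusted p = 0.0752), with 0.18 in EE against placebo and -0.37 in E2 against placebo, and as deposited both estrogen groups lay below placebo.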

How the results depend on the processing

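Scaling moved most counts. In E2 against placebo 6 members were higher and 7 lower on the centred scale. As deposited (pseudocount of 1 or 10) they were 2 and 15, on reference genes 2 and 16, and on gene totals or positive controls 2 and 15. In EE against placebo, 6 and 8 became 4 and 16 as deposited (4 and 17 with a pseudocount of 10). On reference genes they were 2 and 17, on gene totals 4 and 12 and on positive controls 2 and 20. In EE against E2, 1 and 0 became 0 and 3 as deposited (1 and 3 with a pseudocount of 10), 0 and 3 on reference genes, 5 and 0 on gene totals, 0 and 9 on positive controls, 2 and 0 on the centred scale with a pseudocount of 10, 4 and 1 at an adjusted p of 0.1, and 3 and 5 with only the groups compared. With 1 sample left out, where the lone sample of a group is assumed to vary like the others, counts ranged from 4 to 7 higher and 4 to 9 lower in E2 against placebo, from 4 to 7 and 6 to 9 in EE against placebo, and from 0 to 4 and 0 to 5 in EE against E2. The highest counts in EE against E2 came from leaving out a placebo sample, which is not part of that comparison. The direction turned for Il13ra1 in E2 (-0.10 as deposited, -0.09 with a pseudocount of 10, -0.16 on reference genes, 0 on gene totals and -0.19 on positive controls), Il18 in E2 (-0.03), Il15 in EE (-0.04) and Il1rn in EE (-0.06), the last 3 on positive controls. The scalings on reference genes, gene totals, positive controls and the trimmed mean gene and the pseudocount of 10 on the centred scale were chosen after seeing the data. Over all 457 genes the EE against E2 calls went from 35 higher and 25 lower to 83 and 17 on gene totals and 9 and 117 on positive controls. For E2 against placebo they went from 134 and 104 to 63 and 272 as deposited, and for EE against placebo from 142 and 127 to 72 and 290. Without a filter on low values, Il9 was also called higher in both comparisons with placebo (1.58 in E2 and 1.20 in EE), Il22ra2 in E2 (1.32) and Il7 in EE (1.25), at values near background. In the same setting the E2 calls of Il1a (adjusted p = 0.0519) and Il13ra1 (0.059) were lost, and 8 members were higher and 10 lower in EE against placebo. The planned edgeR fit was not run, and no DESeq2 fit was made, since the values are not counts. No paired analysis was possible because the groups share no replicate numbers. With the negative-control mean subtracted, the calls of Il16 (adjusted p = 0.0701) and Il1a (0.0823) in E2 were lost. So were those of Il15 (0.098) and Il1rn (0.0653) in EE. In this setting 5 members were higher and 6 lower in E2 against placebo, and 5 and 8 in EE against placebo. Values near the negative controls limit what can be said of the 19 untested of the 46 members. Tested members such as Il15 (16 to 31), Il1a (16 to 48), Il21 (16 to 59), Il11ra1 (14 to 38) and Il12rb1 (16 to 30) also came close to background.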
